A study of Rattus norvegicus with 6 samples.

Results

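The core circadian clock loop was examined in rat thyroid through 10 genes. Arntl, Clock and Npas2 are its transcriptional activators, and Per1, Per2, Per3, Cry1, Cry2, Nr1d1 and Nr1d2 are its repressors. The genes were chosen by symbol, with their read counts in late pregnant and non-pregnant rats already known. Their levels in these groups, and the counts of those past a threshold, are therefore given as a description, and no p-value is printed for any of the 10. All 10 genes were present among the 15388 genes of each count table. All 10 passed the filter on low counts, which kept 12326 genes, and each had at least 31 reads in every library.

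Thyroids came from adult Sprague-Dawley rats, either non-pregnant (NP) or in late pregnancy (LP) on day 18, counted from the vaginal plug as day 1. The tissue was frozen whole, and polyadenylated RNA of 3 NP and 3 LP samples was sequenced. The age of the rats beyond adult and the hour of collection are not given in the sources used here. Since clock genes cycle over the day, a difference in collection hour and the effect of pregnancy cannot be told apart.

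The clock runs as a feedback loop of transcription. ARNTL (also called BMAL1) pairs with CLOCK or its relative NPAS2 and switches on genes that carry E-box elements. Among these are the period (Per) and cryptochrome (Cry) genes, whose proteins return to the nucleus and block the activators. NR1D1 and NR1D2 (REV-ERB alpha and beta) are nuclear receptors that repress Arntl and Npas2 through a DNA element they share with the ROR receptors. In many tissues of the rat, Arntl and Npas2 messenger RNA therefore peaks at about the opposite time of day from that of the Per and Nr1d genes.

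The libraries held 2752144 to 2965936 counted reads in NP and 3224104 to 3449857 in LP. Replicates 2 and 3 of a group could not be told from 1 library sampled again, with a chi-square per degree of freedom of 1.02 in NP and 0.995 in LP, while replicate 1 differed from them (3.70 to 4.11). They were counted as 1 sample, so that each mean ± SD rests on n = 2. Nothing in the labels shows that samples of a group were taken independently, and p-values then measure the spread between these libraries. The actin gene Acta1 separated the libraries by number and not by group, with 0 reads in replicate 1 of both groups and between 144 and 186 reads in the other 4 libraries. Other markers of skeletal muscle rose in LP. Of 18 listed markers 13 were in the tables and 12 were tested, and 11, all but Acta1, were called higher. Casq1 had at most 4 reads and was not tested. Without Acta1 they summed to at most 22.99 CPM (counts scaled to library size, per 1e6 reads) in NP and at least 4181 CPM in LP. Myh1 and Mylpf were at 0 in all NP libraries. All 8 markers of follicular cells were detected. Their sums, largely thyroglobulin, were 237400 to 253200 CPM in NP and 235600 to 250000 in LP. Of the 8, Slc5a5 (log2 fold change -0.94) and Tshr (-0.69) were called lower, and Nkx2-1 (0.30) and Duox2 (0.30) higher. The other 4 were not called. Parathyroid markers were present in both groups. Their sums, largely Pth, were 4589 to 4912 CPM in NP and 3633 to 3914 in LP. Pth was called lower (log2 fold change -0.30), while Gcm2 (0.17) and Casr (0.12) were not called. C cell markers (14070 to 14870 CPM in NP, 11800 to 12440 in LP) and endothelial markers (326 to 338 in NP, 258 to 270 in LP) were lower in every LP library, and Schwann cell markers (10.2 to 11.5 in NP, 29.6 to 36.9 in LP) higher. The part that RNA of these cell types had in the clock gene levels was not tested. In bulk tissue, fewer cells of a type and less RNA in each cell cannot be told apart.

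Of the activators Arntl and Npas2 were higher in LP, and 5 of the 7 repressors were lower. In edgeR's quasi-likelihood test over all genes, with replicates 2 and 3 summed and Benjamini-Hochberg adjustment, 8 of the 10 clock genes had an adjusted p-value below 0.05. Over all genes 20.6% were called in this way, 12.3% as higher and 8.36% as lower in LP. Arntl, Npas2 and Nr1d1 were the 3 genes called higher, and Per1, Per2, Per3, Cry2 and Nr1d2 the 5 called lower. Arntl, Per2 and Per3 also passed the fold change of 2 that the study required, a criterion met by 5.43% of all genes. The 3 LP libraries lay entirely on one side of the 3 NP libraries for 9 of the 10 genes, against 39.4% of all genes tested. Because the genes were chosen with this comparison known, these counts describe the loop and support nothing further. The median log2 fold change was 0.69 for the activators and -0.37 for the repressors, beside -0.01 for all genes. The median size of the change, taken without its sign, was 0.65 in the 10 genes and 0.21 in all genes.

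**Figure D1:**
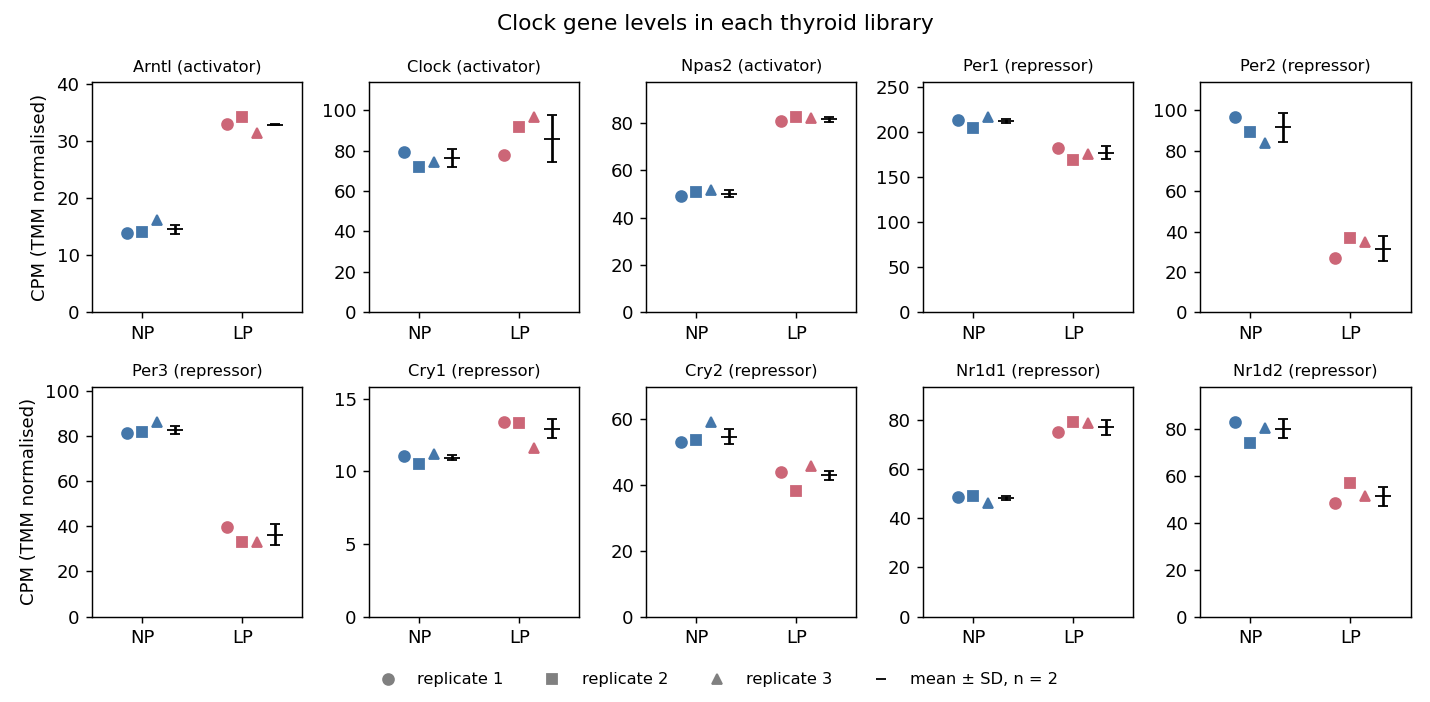
CPM (TMM normalised, linear axes from 0) of the 10 clock genes in each library of NP (blue) and LP (red), with the symbol giving the replicate number and the black bar the mean ± SD over replicate 1 and the mean of replicates 2 and 3 (n = 2). The groups do not overlap for any gene but Clock, and Arntl, Npas2, Cry1 and Nr1d1 are the genes with all LP libraries above NP.

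Short stretches of promoter sequence that hold recognised clock elements are shown for Arntl and Per2, the activator and the repressor with the largest differences, and for Nr1d1, the repressor called higher. They were taken from RefSeq promoter windows of assembly GRCr8 (250 bases before to 50 after a transcription start), another build than the rn5 used for the counts. Windows were matched for 9 of the 10 genes, all but Cry1, and numbered 11, since Clock and Nr1d1 have 2 each. RefSeq lists Arntl as Bmal1. Capitals mark the motif, and lower case the neighbouring bases, 5′ to 3′ along the gene.
Arntl, RORE core, chr1:176766287-176766327, plus strand: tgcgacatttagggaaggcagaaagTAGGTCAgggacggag
Per2, E′-box, chr9:99497025-99497080, minus strand: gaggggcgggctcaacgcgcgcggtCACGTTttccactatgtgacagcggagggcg
Per2, D-box, chr9:99497153-99497210, minus strand: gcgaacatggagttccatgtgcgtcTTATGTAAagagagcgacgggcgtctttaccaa
Nr1d1, E-box, chr10:84229615-84229670, minus strand: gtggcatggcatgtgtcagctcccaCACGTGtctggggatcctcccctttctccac

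Each motif was searched on both strands of the whole window. The core of the response element shared by the REV-ERB and ROR receptors (TAGGTCA or TGGGTCA) was found in Arntl alone, at position -16 from the start, and in 6.6% of all 33469 windows. The D-box (TTATGTAA or TTACGTAA), which binds the factors DBP, TEF, HLF and NFIL3, was found in Per2 alone, at position -192, and in 1.01% of all windows. The perfect E-box (CACGTG) was found in 1 of the 2 Nr1d1 windows and in 6.42% of all windows. Its variant, the E′-box (CACGTT), which differs in the last letter and cannot match the same bases on either strand, was found in Per2, Cry2 and Nr1d1 and in 4.83% of all windows. The cAMP response element (TGACGTCA) was found in no window of the clock genes and in 1.83% of all windows. A match describes these letters and is not a tested binding site, and elements further from the start were outside the windows.

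Among the activators, Arntl differed most between the groups. Arntl (ENSRNOT00000046313) encodes the partner that the loop cannot run without. Replicates 1, 2 and 3 of NP gave 39, 43 and 49 reads, those of LP 103, 115 and 106. Every LP library was more than double every NP library in raw reads, but LP libraries were deeper. Scaled to library size, LP replicate 3 (31.45 CPM) was less than 2-fold above NP replicate 3 (16.09 CPM). In CPM, Arntl was 14.5 ± 0.81 (SD, n = 2) in NP and 32.8 ± 0.093 in LP. That is 2.23-fold higher, or 1.15 on the log2 scale (SE 0.14).

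Npas2 (ENSRNOT00000059571) encodes a close relative of CLOCK that can take its place beside ARNTL. Its NP libraries held 138, 155 and 157 reads and its LP libraries 253, 278 and 277, and the groups did not overlap. The level was 50.2 ± 1.3 CPM in NP against 81.6 ± 1.1 in LP, higher by 0.69 on the log2 scale (SE 0.076). The ratio of Clock to Npas2 reads, in which library size cancels, fell from between 1.42 and 1.61 in NP to between 0.96 and 1.17 in LP.

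Clock (ENSRNOT00000002976), the other partner of ARNTL and itself a weakly cycling gene in many tissues, overlapped between the groups. The NP libraries held 222, 220 and 227 reads and the LP libraries 243, 309 and 325. The levels were 76.3 ± 4.3 and 85.8 ± 11.6 CPM. The log2 fold change was 0.20, with a 95% interval from -0.0022 to 0.41, and the gene was not called. LP replicate 1 was the low library. The log2 change was -0.03 in replicate 1 alone and 0.35 in replicates 2 and 3 alone, and Clock passed the threshold without LP replicate 1, with the 6 libraries as deposited and with the replicate number as a block.

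Per2 and Per3 fell the most of the 10 genes. The PER proteins carry the negative limb of the loop, and the abundance of PER sets its pace. Per2 (ENSRNOT00000027506) gave 270, 273 and 255 reads in the NP libraries against 85, 125 and 117 in the LP libraries. The lowest value was that of LP replicate 1, and the groups were far apart. Its level was 91.5 ± 7.0 CPM in NP against 31.5 ± 6.2 in LP, 2.77-fold lower (log2 fold change -1.47, SE 0.11). Within replicate 1 the log2 change was -1.81, and within replicates 2 and 3 it was -1.27.

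Per3 (ENSRNOT00000024932), the period gene that the loop can best spare, gave 228, 249 and 263 reads in the NP libraries against 124, 111 and 111 in the LP libraries, without overlap. Its level was 82.7 ± 1.7 CPM in NP against 36.3 ± 4.7 in LP, 2.35-fold lower (log2 fold change -1.23, SE 0.097). Here LP replicate 1 was the highest LP library, the opposite of its place in Per2.

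Per1 (ENSRNOT00000057136), which also responds to glucocorticoids and to cAMP, gave 599, 626 and 660 reads in the NP libraries against 572, 572 and 593 in the LP libraries. Raw reads of LP were lower in spite of deeper libraries, and the levels of 213 ± 2.3 and 178 ± 7.1 CPM did not overlap. Its log2 fold change of -0.26 (SE 0.073) was much smaller than those of Per2 and Per3. The ratio of Per1 to Per2 reads rose from between 2.22 and 2.59 in NP to between 4.58 and 6.73 in LP. The call of Per1 was lost in edgeR without NP replicate 3, without LP replicate 1 and without LP replicates 2 and 3 together, and in DESeq2.

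The cryptochromes, which join PER in repressing the activators, had smaller fitted changes than Per2 and Per3. Cry2 (ENSRNOT00000010142) gave 148, 163 and 180 reads in the NP libraries against 137, 128 and 154 in the LP libraries. The raw reads overlapped, while the levels scaled to library size, 54.6 ± 2.4 CPM in NP and 42.8 ± 1.4 in LP, did not (log2 fold change -0.37, SE 0.091). The call of Cry2 was lost in DESeq2, and in edgeR without replicates 2 and 3 of NP or of LP. Cry1 (ENSRNOT00000009124) gave 31, 32 and 34 reads in the NP libraries against 42, 45 and 39 in the LP libraries, the fewest reads of the loop. Its levels, 10.95 ± 0.18 and 12.9 ± 0.68 CPM, did not overlap, but the gene was not called. The log2 fold change was 0.23, with a 95% interval from -0.21 to 0.67, so that changes of this size were not detectable at this depth.

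The REV-ERB genes moved in opposite directions. Nr1d1 (ENSRNOT00000012537) gave 136, 150 and 140 reads in the NP libraries against 234, 267 and 265 in the LP libraries. All LP libraries lay above NP, and the level was 48.1 ± 0.75 CPM in NP against 76.8 ± 2.9 in LP (log2 fold change 0.68, SE 0.079). Nr1d2 (ENSRNOT00000081845) gave 233, 227 and 245 reads in the NP libraries against 152, 193 and 173 in the LP libraries. All LP libraries lay below NP, at 51.4 ± 4.0 CPM against 80.3 ± 4.2 (log2 fold change -0.62, SE 0.084). The ratio of Nr1d1 to Nr1d2 reads was between 0.57 and 0.66 in NP and between 1.38 and 1.54 in LP, so that the order of their reads within a library reversed. The 3′ end of Nr1d1 overlaps the thyroid hormone receptor gene Thra, by 1061 bases in the RefSeq annotation of GRCr8. Thra gave 241, 278 and 244 reads in the NP libraries against 348, 426 and 375 in the LP libraries, higher by 0.43 on the log2 scale (SE 0.070, adjusted p = 0.00109 in edgeR). The strand setting of the counting is not given in the sources used here, and the part of Thra reads in the Nr1d1 counts was not tested. In the same annotation Cry1 overlaps another protein-coding gene, and Clock, Npas2, Per2 and Cry2 overlap long non-coding RNA genes. The counts used another annotation, and the part of reads from these overlapping genes in them was not tested.

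**Figure D2:**
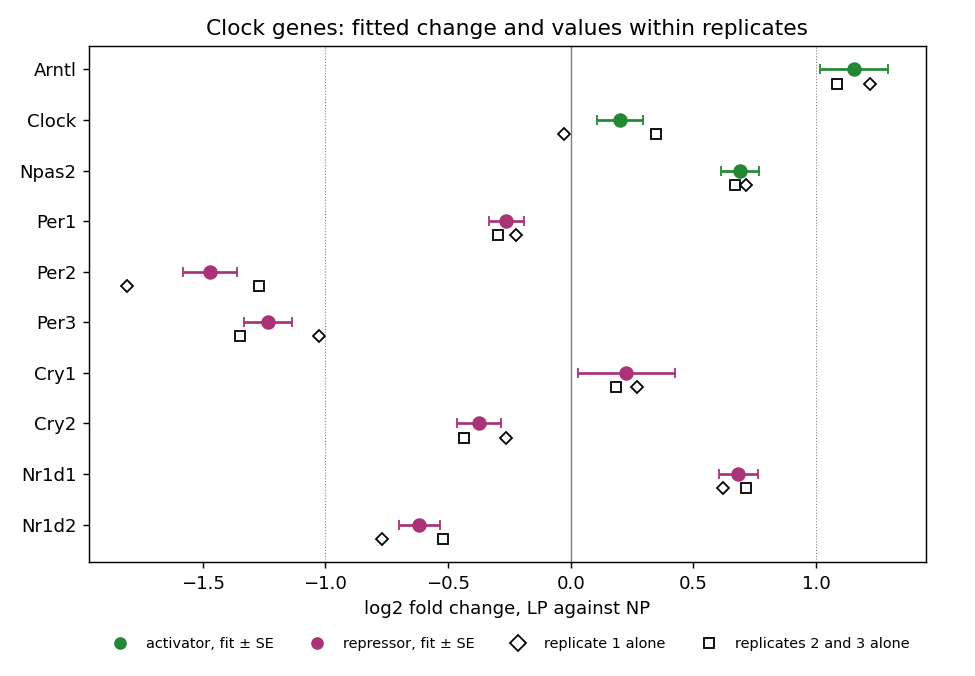
Log2 fold change of LP against NP for each clock gene, with activators in green and repressors in purple (circles, edgeR fit ± SE) and, beneath each, the values of replicate 1 alone (diamonds) and of replicates 2 and 3 alone (squares). Dotted lines mark a change of 2-fold, and Clock is the gene whose replicate values fall on both sides of 0.

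The balance of the loop was then computed inside each library, where library size cancels. The mean log2 CPM of the 3 activators minus that of the 7 repressors was -0.73, -0.70 and -0.66 for replicates 1, 2 and 3 of NP. For those of LP it was 0.36, 0.44 and 0.45. All LP libraries lay above all NP libraries by a wide gap. With replicates 2 and 3 as 1 sample the means were -0.70 ± 0.033 (SD, n = 2) in NP and 0.40 ± 0.057 in LP, a difference of 1.11. Within replicate 1 the difference was 1.09, and within replicates 2 and 3 it was 1.13. Since gene lengths were not used, a value of 0 has no meaning of its own, and only the shift between groups can be read. The ratio of Arntl to Per2 reads moved furthest of the 8 ratios computed, from between 0.14 and 0.19 in NP to between 0.91 and 1.21 in LP. Npas2 to Per2 went from between 0.51 and 0.62 to between 2.22 and 2.98, and Arntl to Per3 from between 0.17 and 0.19 to between 0.83 and 1.04. Arntl to Nr1d1, a pair that rose together, moved less, from between 0.29 and 0.35 to between 0.40 and 0.44. Cry1 to Cry2 went from between 0.19 and 0.21 to between 0.25 and 0.35.

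**Figure D3:**
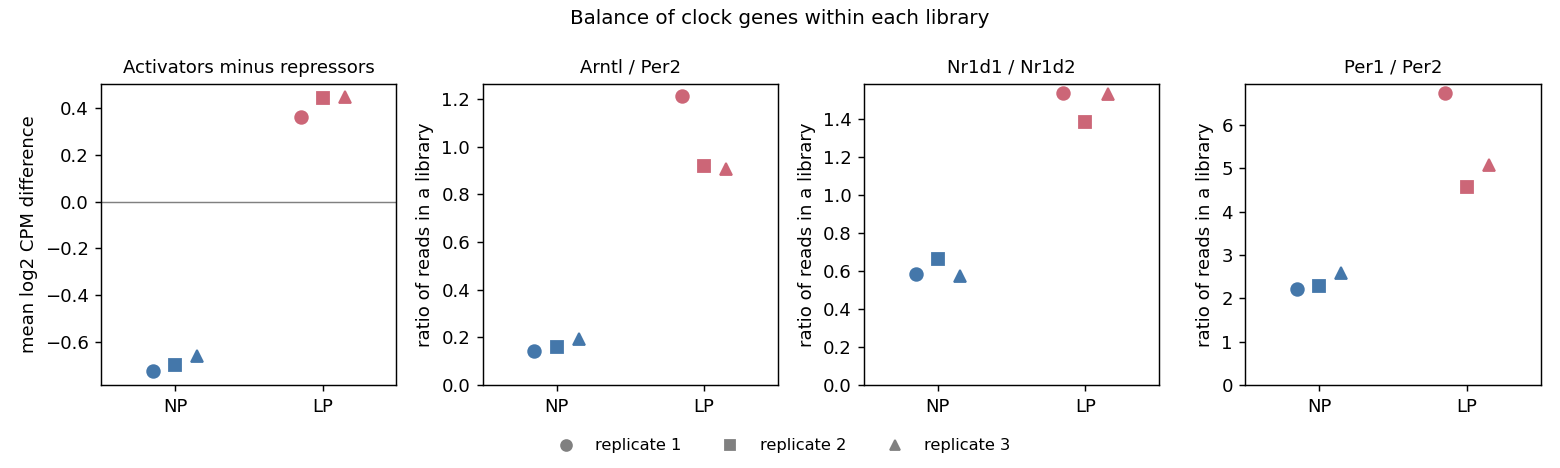
Values computed within each library of NP (blue) and LP (red), with symbols for the replicate number: the mean log2 CPM of activators minus that of repressors, and the ratios of reads of Arntl to Per2, Nr1d1 to Nr1d2 and Per1 to Per2. In each panel the 3 LP libraries lie above the 3 NP libraries.

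The 10 genes were also compared between libraries of the same group, a measure that played no part in their choice. The absolute log2 difference between replicate 1 and the summed replicates 2 and 3 had a median of 0.076 in NP and 0.10 in LP over the 10 genes. Over all tested genes these medians were 0.14 and 0.13. The 2 sets were not matched for read depth, on which such differences depend. Only 7943 genes had a mean of at least 50 reads, while 12326 were tested. The smaller medians of the 10 genes therefore do not show that they varied less than other genes of like depth. The largest difference within NP was that of Per2, at 0.15, and the largest within LP was also that of Per2, at -0.39, in the opposite direction. Within LP, Per3 (0.27) and Clock (-0.27) followed.

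Other genes connected with the clock were read from a list of 27 written with earlier results of these data known. Of these, 25 were in the tables, 23 passed the filter and 11 were called, 4 higher and 7 lower in LP. This was 47.8% of those tested, beside the 20.6% of all genes given above. The median log2 fold change of those tested was 0.04. Because the list was written with earlier results known, these counts and the adjusted p-values below describe its genes and support nothing further.

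The PAR bZIP factors DBP and TEF bind the D-box and are direct outputs of the loop, and both fell. Dbp gave 282, 269 and 266 reads in the NP libraries against 177, 207 and 227 in the LP libraries (log2 fold change -0.60, SE 0.090, adjusted p = 0.00053, edgeR). Tef gave 290, 281 and 253 reads in the NP libraries against 160, 159 and 181 in the LP libraries (log2 fold change -0.89, SE 0.091, adjusted p = 2.47e-05). No library of one group reached the range of the other for either gene. Hlf, of the same family, and Nfil3, which competes with it for the D-box, were not called, with log2 fold changes of 0.33 (95% interval -0.096 to 0.76) and 0.51 (0.0046 to 1.01). The direction of Dbp and Tef was that of Per2 and Per3.

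Of the further E-box repressors, Bhlhe41 (DEC2) rose, from 11, 21 and 19 reads in the NP libraries to 38, 40 and 31 in the LP libraries (log2 fold change 0.98, SE 0.27, adjusted p = 0.0258, edgeR). Its adjusted p-value was 0.223 in DESeq2. The call was also lost in edgeR with libraries left out, at an adjusted p of 0.057 without NP replicate 1, 0.0966 without LP replicate 1, 0.0591 without LP replicate 2 and 0.0954 without LP replicates 2 and 3. Bhlhe40 (DEC1) and Ciart were not called, at 0.13 and -0.12. Rora, which activates Arntl through the element that the REV-ERB proteins occupy, had between 5 and 21 reads in a library. It was not called, with a log2 fold change of 0.47 (95% interval -0.41 to 1.36). Rorb, of the same family, had at most 3 reads in a library and Arntl2, the paralog of Arntl, also at most 3, below the filter.

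None of 5 kinases and ubiquitin ligase subunits, which act on the stability of PER and CRY proteins, was called. Csnk1d, Csnk1e, Gsk3b, Btrc and Fbxw11 had log2 fold changes between -0.06 and 0.15. Usp2, a deubiquitinase with a rhythmic transcript in many tissues, was the exception of its group. It gave 39, 23 and 32 reads in the NP libraries against 96, 85 and 95 in the LP libraries, without overlap. Its log2 fold change of 1.39 (SE 0.20, adjusted p = 0.000355, edgeR) was the largest rise of the list.

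Wee1, a kinase of the cell cycle under E-box control, fell by 0.64 on the log2 scale (SE 0.11, adjusted p = 0.00136, edgeR). Nampt, the enzyme that limits the salvage of NAD and another clock output, rose by 0.52 (SE 0.11, adjusted p = 0.00468). In DESeq2 both missed the threshold, with adjusted p-values of 0.0587 and 0.187, and Nampt also did in edgeR without NP replicates 2 and 3 (adjusted p = 0.0607). Nono, a partner of PER proteins, fell by 0.27 on the log2 scale (SE 0.069, adjusted p = 0.0166), but was not called without LP replicate 1 (adjusted p = 0.124) or without LP replicates 2 and 3 (0.0621). Timeless, with a log2 fold change of -0.25, was not called (adjusted p = 0.0654). It was called with the 6 libraries as deposited (adjusted p = 0.0327) and without NP replicate 3 (0.0266). With the replicate number as a block it was called on the summed libraries (0.016) and on the 6 libraries (0.0129). Without NP replicates 2 and 3 together its log2 fold change was -0.33.

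Of 4 genes induced by glucocorticoids, hormones that reset peripheral clocks and act on Per1 and Per2 directly, 3 fell in LP. Fkbp5, a chaperone of the glucocorticoid receptor, gave 156, 184 and 149 reads in the NP libraries against 67, 71 and 60 in the LP libraries (log2 fold change -1.45, SE 0.11, adjusted p = 1.57e-06, edgeR). Tsc22d3 (GILZ) fell from between 488 and 525 reads to between 287 and 319 (log2 fold change -0.88, SE 0.074, adjusted p = 4.28e-06). Sgk1, a kinase of ion transport, had a log2 fold change of -0.63 (SE 0.11, adjusted p = 0.00134). Klf9 was not called, at 0.07 (95% interval -0.092 to 0.23). The receptor gene itself, Nr3c1, was slightly higher, at 0.28 (SE 0.087, adjusted p = 0.0443). That call was lost without replicate 1 of either group (adjusted p = 0.138 for NP and 0.113 for LP), without replicate 2 of either group (0.0845 and 0.0852), without both replicates 2 and 3 of either group (0.0598 and 0.18), and in DESeq2 (0.567). The part of glucocorticoids in the Per1 and Per2 levels was not tested.

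**Figure D4:**
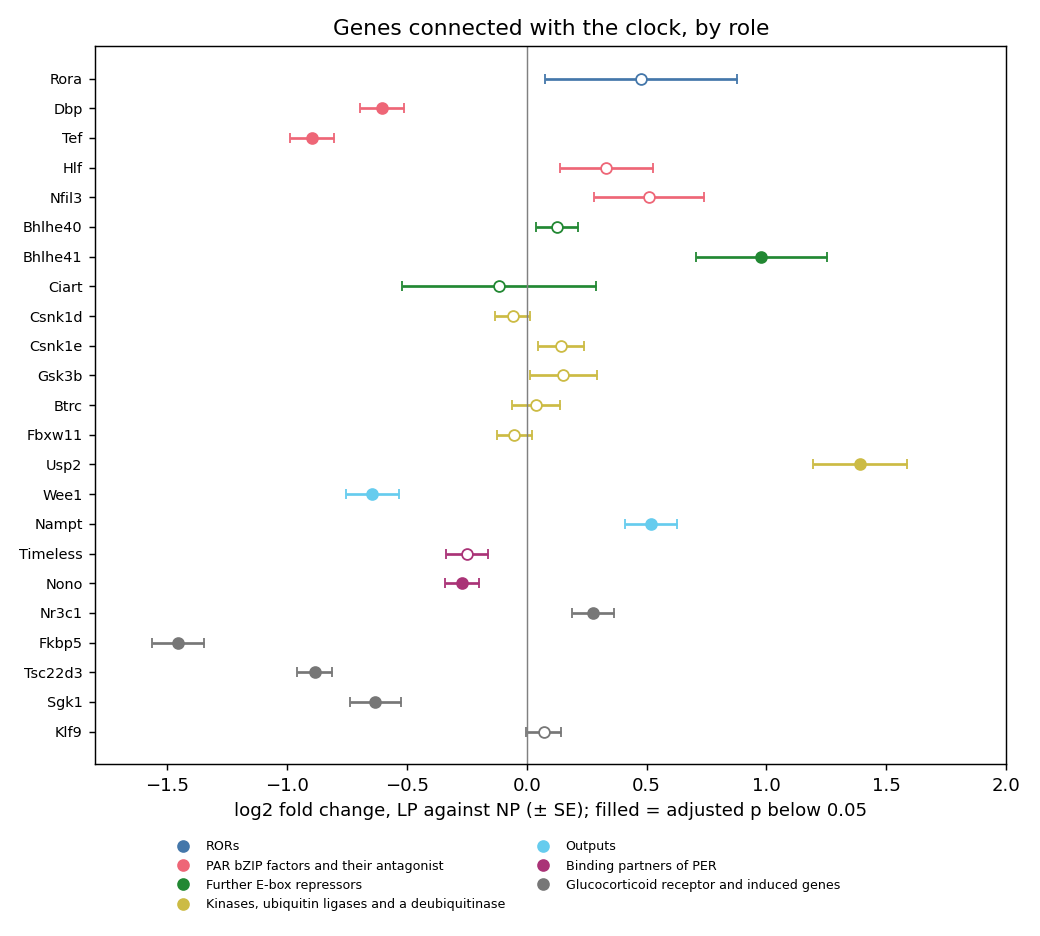
Log2 fold change of LP against NP (edgeR fit ± SE) for the 23 tested genes of the wider clock list, coloured by role, with filled circles for an adjusted p-value below 0.05. Fkbp5, Tef, Tsc22d3, Wee1, Sgk1, Dbp and Nono are filled below 0, and Usp2, Bhlhe41, Nampt and Nr3c1 above.

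Genes with the profile most like that of Arntl were sought by the root mean square difference of log2 CPM over the 4 libraries left after summing replicates 2 and 3, each gene centred on its mean. The nearest were Tuba4a, an alpha-tubulin (difference 0.030), Ldhb, a subunit of lactate dehydrogenase (0.030), and Pde4d, a phosphodiesterase that degrades cAMP (0.032). For Nr1d1 they were Map1lc3a, an autophagy protein (0.014), Mast2, a kinase (0.023), and RT1-N3 (0.023). RT1-N3 is a histocompatibility gene with close copies, so that its reads are uncertain. Pde4d had between 8 and 43 reads in a library and RT1-N3 between 14 and 36, so the nearness of both is uncertain. With 4 libraries in 2 groups, likeness is set mostly by the size of the change between LP and NP.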

How the data were processed

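Polyadenylated RNA from thyroids of 3 NP and 3 LP rats (day 18) was sequenced on an Illumina HiSeq. The authors mapped reads to rat genome rn5 with TopHat 1.4.0 and counted them on Ensembl gene models with HTSeq, and the deposited values are raw read counts for each gene. Genes and lists were chosen with earlier results of these data known. All tables hold the same genes, and no sample was left out.

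Replicates 2 and 3 of each group, which agreed within sampling noise by chi-square (genes of 10 or more reads per pair), were summed. LP was compared with NP in R 4.3.3 with edgeR 4.0.16 (glmQLFit, glmQLFTest, TMM, default filter), without covariates, and p-values were adjusted by Benjamini-Hochberg over all tested genes. A call is an adjusted p-value below 0.05, and the study's criteria add a fold change above 2. The size of the log2 fold change over the root of its F statistic gave the SE. CPM used TMM factors (prior count 2 for log2 values), except in marker sums, which used library totals. DESeq2 1.42.0 was an alternative. Figures used matplotlib 3.10.9. The edgeR fit on the summed libraries and the chi-square ratio were tested on simulated counts. DESeq2, the block and the balance of activators and repressors were not tested in this way.

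Named were all 10 clock genes, the genes of the wider clock list (2 further genes of which are not reported here), and the 3 genes nearest to Arntl and to Nr1d1. A level of 3 reads in a library was 0.87 to 1.09 CPM. Such limits take in counting error alone.

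Deviations from the group mean of log2 CPM correlated between same-numbered NP and LP libraries at 0.49, 0.22 and 0.19 for replicates 1, 2 and 3. Replicate 2 of a group and replicate 3 of the other gave 0.22 as well. The labels give the number and not what it stands for, so the block separated replicate 1 from replicates 2 and 3. Other alternatives were the 6 libraries as deposited, other size factors, other filters on low counts, and each library left out.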

Additional observations from a re-analysis of the deposited data

How the results depend on the processing

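The number of clock genes called lay between 6 and 9 of 10 in the alternatives, and the 3 genes past the 2-fold criterion numbered 3 in each. Over these settings the 159 fold changes of the clock genes kept their sign, with 7 calls lost and 4 gained. Clock alone turned, at -0.026 in replicate 1 alone, a setting chosen after seeing the data. With the replicate number as a block on the summed libraries, 9 clock genes and 3632 of all genes were called. The block lowered the coefficient of variation edgeR estimated from 0.0781 to 0.0163, so these p-values rest largely on counting noise. DESeq2 called 1169 genes in place of 2541, 6 of the clock genes and 7 in place of 11 of the wider list. With a mean of at least 50 reads, 317 in place of 669 genes passed the study's criteria. With libraries left out, the genes called numbered between 1530 (without LP replicates 2 and 3 together) and 2553. Of the wider list, 4 uncalled genes turned sign. With single libraries left out Ciart ranged from -0.0412 to 0.0287 and Btrc from -0.043 to 0.0981. Without NP replicates 2 and 3 Btrc was at -0.0606, and without LP replicates 2 and 3 Rora was at -0.211 and Csnk1e at -0.0182. The balance of activators and repressors was not computed anew for the settings of tool, normalisation, filter and block. Leaving out replicate 1 leaves 1 summed library in that group, assumed to vary like the other. The cause of these shifts was not tested.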
